A study of Homo sapiens with 13 samples.

Results

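The comparison described here is RNA of TE-7 cells after 24 hr with interleukin-13 (IL-13) against RNA of TE-7 cells after 24 hr without it. TE-7 is an established human line of esophageal epithelium, and both cultures were grown in RPMI medium with 5% FCS. IL-13 was given at 100 ng/ml. Of 23637 genes in the deposited table, 12389 were compared: those with at least 1 RPKM in either library and a transcript span of at least 300 bp. RPKM is the number of reads per kilobase of transcript and per megaread mapped. The comparison uses 2 of the 13 samples of the series, which also holds RNA of control and treated cells at 2 and 6 hr and histone marks at 6 hr. Each side is 1 library, so the differences have no replicate check and no p-value was computed.

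IL-13 is a type 2 cytokine made by T helper and innate lymphoid cells. It binds a receptor of IL-4RA and IL-13RA1 chains on epithelium, which act through Janus kinases on the transcription factor STAT6. In the esophagus the cytokine is known for its part in eosinophilic esophagitis, where the epithelium makes the eosinophil attractant CCL26 and loses features of differentiated squamous cells. Squamous differentiation replaces the keratins of the basal layer with those of the upper layers and builds the cornified envelope.

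Genes with a log2 ratio of (RPKM + 0.1) of 1 or more in size, a 2-fold difference, were called higher or lower. The added 0.1 understates the change of low genes. By this rule 68 genes were higher with IL-13, 0.549% of those compared, and 126 were lower, 1.02%, or 1.57% in all. The median log2 ratio of all genes compared was 0.02, and 82.8% of them lay within 1.25-fold. Of these, 24 of the higher and 45 of the lower genes reached 5 RPKM, and 11 and 22 of them reached 20 RPKM. At the other end, 26 higher and 46 lower genes did not reach 2 RPKM. The last genes inside the limit were NRGN at 1.02 and PTGS2 at -1.01 on the log2 scale. The first ones outside it were SLC45A4 at 0.999 and GDPD3 at -0.997. The authors' adjusted p-values come from the same reads of 1 library per side, so they are no separate check of these calls. In the authors' deposited table, 34 of the 68 higher and 49 of the 126 lower genes had an adjusted p under 0.05 with the same direction, against 0.396% and 0.694% of all genes compared.

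**Figure D1:**
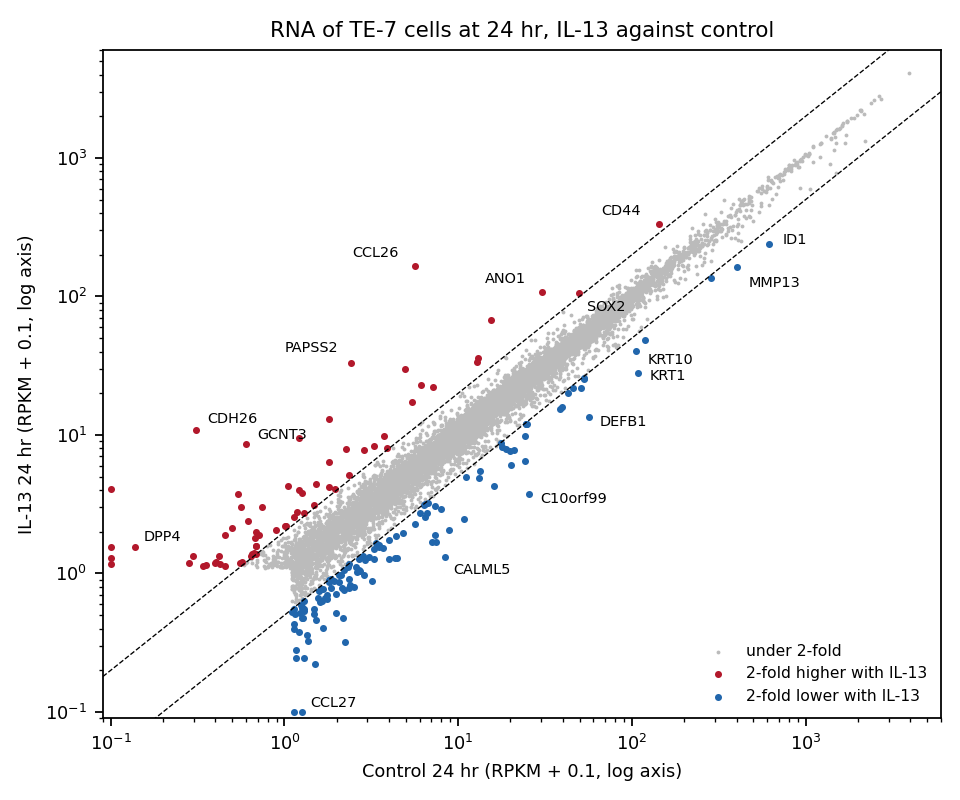
RPKM + 0.1 of each gene compared in the control (x, log axis) and IL-13 (y, log axis) libraries of 24 hr, with dashed lines at 2-fold either way; each point is 1 gene in 1 library a side. CCL26 lies far above the upper line, at 5.51 and 166 RPKM, while ID1, MMP13, KRT1 and KRT10 are among the abundant genes under the lower one.

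Depth was 13.6 megareads in the control and 14.0 megareads with IL-13, as read from the smallest steps of RPKM. The authors' log2 ratios at 24 hr are ratios of whole reads, less a constant of 0.062, for 12382 of the 12382 genes with both values above 0. Reads of a gene are therefore given below where they could be solved, and intervals are exact 95% intervals of the ratio of reads, which cover counting error only. Of the 18 epithelial and squamous markers, all were compared, among them KRT5, TP63 and EPCAM. Among 21 leukocyte markers only CD68 was compared, and 5 of 18 fibroblast and muscle markers were. These 5 were S100A4 at 82.2 and 52.1 RPKM without and with IL-13, FN1 at 31.4 and 19.2, COL1A1 at 3.89 and 3.31, TAGLN at 3.31 and 3.50 and ACTA2 at 3.27 and 4.02 RPKM, while COL1A2, COL6A3, POSTN and THY1 were listed at 0 in both libraries. In bulk RNA, fewer cells of a type and less RNA per cell cannot be told apart.

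The promoter sequences of some of the genes with the greatest differences are shown to set their letters beside the motif that STAT6 is known to bind. The motif words searched on both strands were TTC and GAA with any 4 bases between them, the spacing STAT6 prefers, and TTCNNNGAA, with 3 bases between, the spacing of most other STATs. Matches of one word may overlap those of the other. Sequences are from RefSeq (GRCh38.p14), the 250 bases before the start, 5′ to 3′, with matches to these words or to the TATA word TATAAA in capitals.

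CDH26: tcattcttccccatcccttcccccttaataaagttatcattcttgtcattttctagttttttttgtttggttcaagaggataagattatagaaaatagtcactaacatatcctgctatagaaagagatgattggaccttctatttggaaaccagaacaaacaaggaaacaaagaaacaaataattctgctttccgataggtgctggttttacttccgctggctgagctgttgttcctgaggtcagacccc

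GCNT3: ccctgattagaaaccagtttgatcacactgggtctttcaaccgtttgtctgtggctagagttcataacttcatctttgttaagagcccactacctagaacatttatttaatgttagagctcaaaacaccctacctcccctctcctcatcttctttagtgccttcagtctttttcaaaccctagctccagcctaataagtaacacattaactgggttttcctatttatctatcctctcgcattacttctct

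C10orf99: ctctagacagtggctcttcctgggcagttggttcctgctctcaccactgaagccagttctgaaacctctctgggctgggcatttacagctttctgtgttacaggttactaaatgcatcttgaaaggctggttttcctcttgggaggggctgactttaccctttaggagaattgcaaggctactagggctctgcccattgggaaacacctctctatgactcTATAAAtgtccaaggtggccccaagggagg

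CALML5: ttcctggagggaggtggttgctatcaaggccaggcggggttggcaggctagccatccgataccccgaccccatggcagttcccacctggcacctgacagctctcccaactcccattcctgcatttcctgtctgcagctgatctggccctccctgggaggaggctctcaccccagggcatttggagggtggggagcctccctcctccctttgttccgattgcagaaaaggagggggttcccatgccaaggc

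CISH: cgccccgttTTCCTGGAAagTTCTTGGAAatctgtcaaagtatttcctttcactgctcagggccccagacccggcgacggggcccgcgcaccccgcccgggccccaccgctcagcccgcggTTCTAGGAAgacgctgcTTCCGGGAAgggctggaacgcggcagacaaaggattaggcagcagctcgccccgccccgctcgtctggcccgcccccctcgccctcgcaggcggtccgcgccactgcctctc

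CDH26 and GCNT3 were higher with IL-13 and hold none of the 3 words. C10orf99 (GPR15LG in RefSeq) and CALML5 were lower, and C10orf99 holds 1 TATA word close to its start. CISH, which encodes a STAT-induced inhibitor of cytokine receptors, holds 4 matches of TTCNNNGAA and was added after the matches had been seen. The 5 windows lie at chr20:59958173-59958422 (+), chr15:59611533-59611782 (+), chr10:84173551-84173800 (+), chr10:5499571-5499820 (-) and chr3:50611775-50612024 (-). No promoter of PAPSS2 was matched, and that of CCL26 is not shown because the peak file lists more than 1 start for the gene.

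Over all promoters, from 250 bases before to 50 after the start, the 4-base spacing was found in 4 of 48 matched higher genes (8.33%), in 6 of 85 lower genes (7.06%) and in 4.50% of all genes compared. The share was 6.37% over all promoters of the table. TTCNNNGAA was found in 5 of 48 (10.4%), 7 of 85 (8.24%) and 6.24%, with 7.88% over all promoters. The higher genes with a match of the 4-base spacing include SGK1, at 139 bases before the start, and those of TTCNNNGAA include LIFR, at 165 bases before it. The TATA word was in 7 of 48 higher (14.6%) and 13 of 85 lower genes (15.3%), against 5.28% of all compared. Over all promoters of the table it was in 3264 of 27305. That share is below those of the higher and lower genes but much closer to them than 5.28% is. An excess of the TATA word in the called genes therefore depends on which background is used. The median GC content was 59.5% in higher and 62.3% in lower genes, against 65.7% in all genes compared. In the 17 matched genes that were higher at both 6 and 24 hr it was 49.0%. These shares describe windows of sequence: a match is not a binding site, and no match says only that these letters are not in the window.

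The most abundant product among the strongest responders was CCL26 (eotaxin-3, chr7:75398842-75419064 in hg19, minus strand), which attracts eosinophils through CCR3. The control libraries of 2, 6 and 24 hr held 5.41, 6.27 and 5.51 RPKM, and the IL-13 libraries 23.2, 54.8 and 166 RPKM. Every IL-13 library was above all 3 controls, and the level was greatest at 24 hr. There the ratio was 30.1, from 42 and 1305 reads, with an interval of 22.1 to 41.9. CDH26, a cadherin of epithelia that carries eosinophilic inflammation, was at 0.223, 0.312 and 0.210 RPKM in the controls and at 0.822, 3.63 and 10.8 RPKM with IL-13. At 24 hr its ratio was 51.5 in RPKM, whereas the authors' log2 ratio in their deposited table equals that of 1 and 161 reads in lowest terms, the fewest whole reads that give it. Set to depth, these make a ratio of 156 with an interval of 27.6 to 6190. The table gives 2 transcripts for CDH26, and the deposited RPKM and log2 ratio differ for it, so its fold change is uncertain while its IL-13 level is not near 0.

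GCNT3, which builds branched O-glycans on mucins, was at 0.141, 0.0720 and 0.498 RPKM without and 2.12, 2.87 and 8.54 RPKM with IL-13. The 2-fold rule was met at each time, and the 24 hr ratio of 17.2 rested on 15 and 266 reads (interval 10.22 to 31.1). PAPSS2, which makes the sulfate donor for proteoglycans and steroids, was different in timing. It was at 0.783, 1.22 and 2.32 RPKM in the controls and at 0.903, 2.06 and 32.8 RPKM with IL-13, so that only the 24 hr pair passed 2-fold, by 14.1. DPP4, a surface peptidase that cleaves chemokines and incretins, was under 0.1 RPKM in the other 5 libraries and at 1.44 RPKM with IL-13 at 24 hr, from 2 and 79 reads (ratio 38.2, interval 10.24 to 321). IL31, an itch cytokine, had 0 reads in the control and 15 with IL-13 at 24 hr, which is at least 4.84-fold higher against a floor of 3 reads in the control library, while the exact interval of the ratio starts at 3.47. Its RPKM was 0 in all 3 controls, and 0.976, 0.440 and 1.18 with IL-13.

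**Figure D2:**
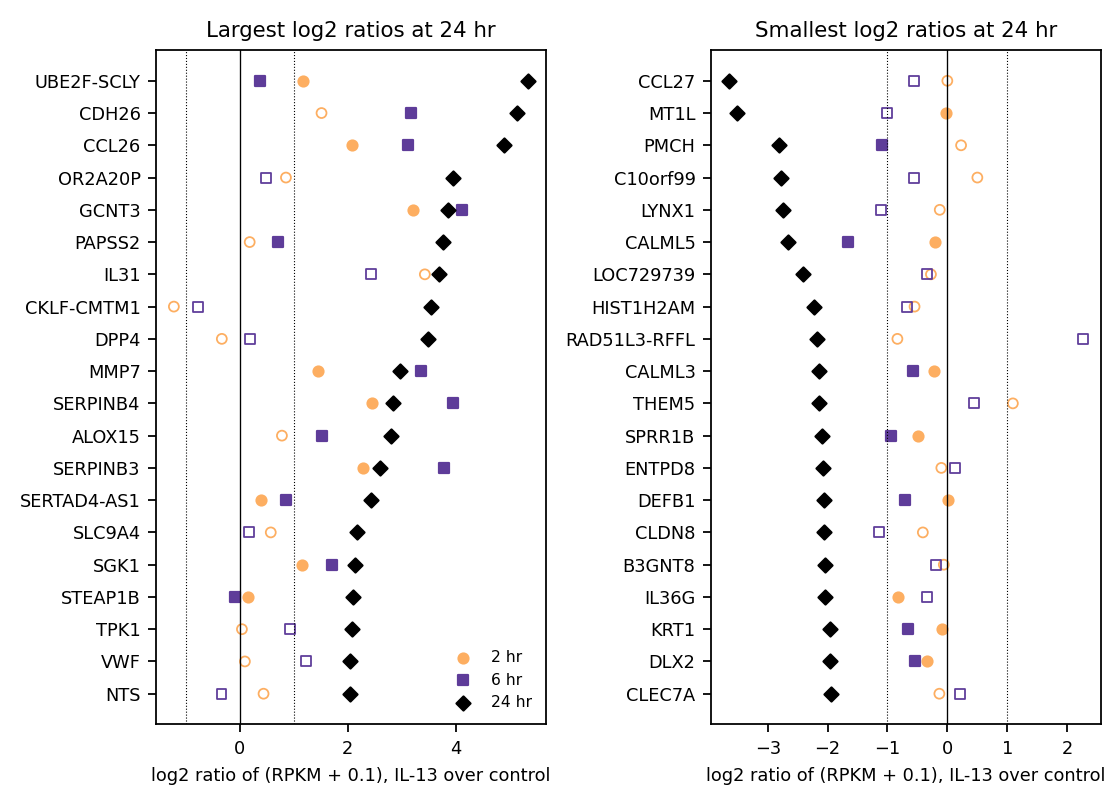
Log2 ratio of (RPKM + 0.1), IL-13 over control, at 2, 6 and 24 hr for the 20 named genes whose ratio at 24 hr was largest and the 20 whose ratio was smallest; open symbols are genes under 1 RPKM in both libraries of that time, and dotted lines mark 2-fold. CCL26, GCNT3, MMP7, SERPINB3 and SERPINB4 are to the right at all times, while the ratios at 2 hr of the genes on the lower side lie between -0.83 and 1.09.

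Some of the top 20 on each side are uncertain. UBE2F-SCLY and CKLF-CMTM1 on the higher side and RAD51L3-RFFL on the lower are read-through transcripts that share exons with their parent genes. OR2A20P is listed at 0 without IL-13 and reached 1.45 RPKM with it, while OR2A9P, which overlaps it, was lower, at 2.02 and 0.874 RPKM. SERTAD4-AS1 overlaps SERTAD4, both were higher, and whether reads were counted by strand is not given in the sources used here. SERPINB3 and SERPINB4 are near copies of each other. Of the higher genes, reads were solved for 33, of which 10 had under 20 reads in all and 6 an interval that held 1. Of the lower genes they were solved for 66, of which 12 had under 20 reads and 10 an interval that held 1.

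Among known IL-13 response genes of epithelia, a list assembled with earlier results of these data known, 14 of 36 members in the table were compared. Of these 10 were higher, 0 were lower, and the median log2 ratio was 1.58 beside 0.02 over all genes. CDH26, DPP4 and ALOX15 were under 1 RPKM in the control and were compared through their IL-13 level only. The minimum therefore in part sets this count and median. Counts for this and the following lists stand beside 0.549% higher and 1.02% lower among all genes compared, and a lone called member of a long list is near these shares. Besides CCL26, CDH26 and DPP4, they include SERPINB3 and SERPINB4, serpins that inhibit cysteine and serine proteases. SERPINB3 was at 1.47, 1.20 and 4.85 RPKM in the controls of 2, 6 and 24 hr and at 7.58, 17.8 and 30.02 RPKM with IL-13, and its 24 hr ratio was 6.19 (117 and 748 reads, interval 5.08 to 7.58). ALOX15, the 15-lipoxygenase of eosinophil and epithelial lipid mediators, was at 0.439 and 3.64 RPKM at 24 hr, from 16 and 137 reads. ANO1, a calcium-activated chloride channel, was far more abundant. Its controls held 31.8, 31.7 and 30.4 RPKM, almost flat in time, and its IL-13 libraries 53.0, 113 and 108 RPKM. SYNPO, an actin-associated protein, was at 3.77 and 8.01 RPKM at 24 hr. Members that did not pass were CTSC, a lysosomal dipeptidyl peptidase, at 18.6 and 36.5 RPKM, the oxidase DUOX2 at 6.47 and 9.82 RPKM and SERPINB2 at 24.6 and 29.1 RPKM. CAPN14, a calpain of esophageal epithelium, was under the minimum, at 0.270 and 0.392 RPKM.

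STAT6 and the receptor chains IL4R and IL13RA1 differed by less than 2-fold at 24 hr, while the inhibitors SOCS1 and CISH were higher. Of 39 members of the JAK-STAT list 3 were higher and 1 was lower, with a median of -0.02. STAT6 was at 60.3 and 60.9 RPKM. The receptor chains IL4R, at 16.7 and 12.4 RPKM, and IL13RA1, at 17.7 and 15.6 RPKM, were chosen after their values were seen. IL13RA2, also chosen then, was under the minimum and not compared, at 0.161 and 0.364 RPKM. SOCS1, which blocks Janus kinases, was at 1.99, 1.57 and 2.24 RPKM in the controls and at 9.42, 6.87 and 5.04 RPKM with IL-13. CISH was at 3.50, 5.04 and 3.18 RPKM without and 16.1, 14.5 and 8.21 RPKM with IL-13. Both were higher at all 3 times, and their 24 hr ratios of 2.25 (interval 1.51 to 3.40) and 2.58 (reads in lowest terms 45 and 121, interval 1.83 to 3.75) were the smallest of the 3. In the authors' deposited table the adjusted p at 24 hr was 0.734 for SOCS1 and 0.0146 for CISH. LIFR, the receptor of leukemia inhibitory factor, was at 1.74, 1.59 and 7.08 RPKM in the controls and at 4.83, 7.18 and 22.1 RPKM with IL-13. The lower member was IRS1, an adaptor of the IL-4 and insulin receptors, at 2.82 and 1.14 RPKM.

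Enzymes of the cell coat were among the higher genes. In the hyaluronan and heparan sulfate list 4 of 22 members were higher and 0 lower, with a median of -0.01. HAS3, a hyaluronan synthase, was at 23.9, 23.4 and 12.7 RPKM without IL-13 and at 135, 89.0 and 33.7 RPKM with it. HAS2 was at 2.79 and 7.67 RPKM at 24 hr, and the heparan sulfate sulfotransferase HS3ST1 at 0.638 and 2.90 RPKM. CD44, the hyaluronan receptor, rested on the most reads of any gene named among the higher ones: 5443 and 13208 in lowest terms, at 143 and 335 RPKM, a ratio of 2.35 with an interval of 2.27 to 2.42. At 2 and 6 hr CD44 was at 176 and 145 RPKM in the controls and at 219 and 234 RPKM with IL-13, so it passed 2-fold at 24 hr alone. GPC1, a heparan sulfate proteoglycan, did not pass, at 122 and 68.5 RPKM.

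Of 29 transporters and kinases of ion balance 2 were higher and 0 lower, while 16 were above 0 and 13 below it. The median was 0.01, and it was -0.02 with ratios centred on the median of all genes. SGK1, a kinase that raises sodium channel and exchanger activity, was at 16.4, 8.45 and 15.4 RPKM in the controls and at 36.3, 27.7 and 67.4 RPKM with IL-13. The 24 hr ratio of 4.38 had an interval of 3.98 to 4.84. The sodium-proton exchangers SLC9A4, at 0.196 and 1.24 RPKM, and SLC9B2, at 2.17 and 7.83 RPKM, are outside the list and were higher at 24 hr, whereas SLC9B2 had been at 3.63 and 3.78 RPKM at 6 hr.

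Among matrix enzymes 2 of 23 were higher and 3 were lower, and members of a single cluster on chromosome 11 went opposite ways. MMP7 (matrilysin) was at 1.12 and 9.43 RPKM at 24 hr, a ratio of 8.42 with an interval of 5.09 to 14.8. Collagenase MMP13 was at 180, 67.9 and 404 RPKM in the controls and at 180, 75.7 and 163 RPKM with IL-13, and stromelysin MMP10 at 52.9 and 25.3 RPKM at 24 hr. The metalloproteinase inhibitor TIMP3 was also lower, at 15.9 and 4.19 RPKM, while TIMP1, chosen after its value was seen, was at 69.1 and 60.7 RPKM. LOXL4, which cross-links collagen, was higher, at 6.01 and 23.0 RPKM.

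**Figure D3:**
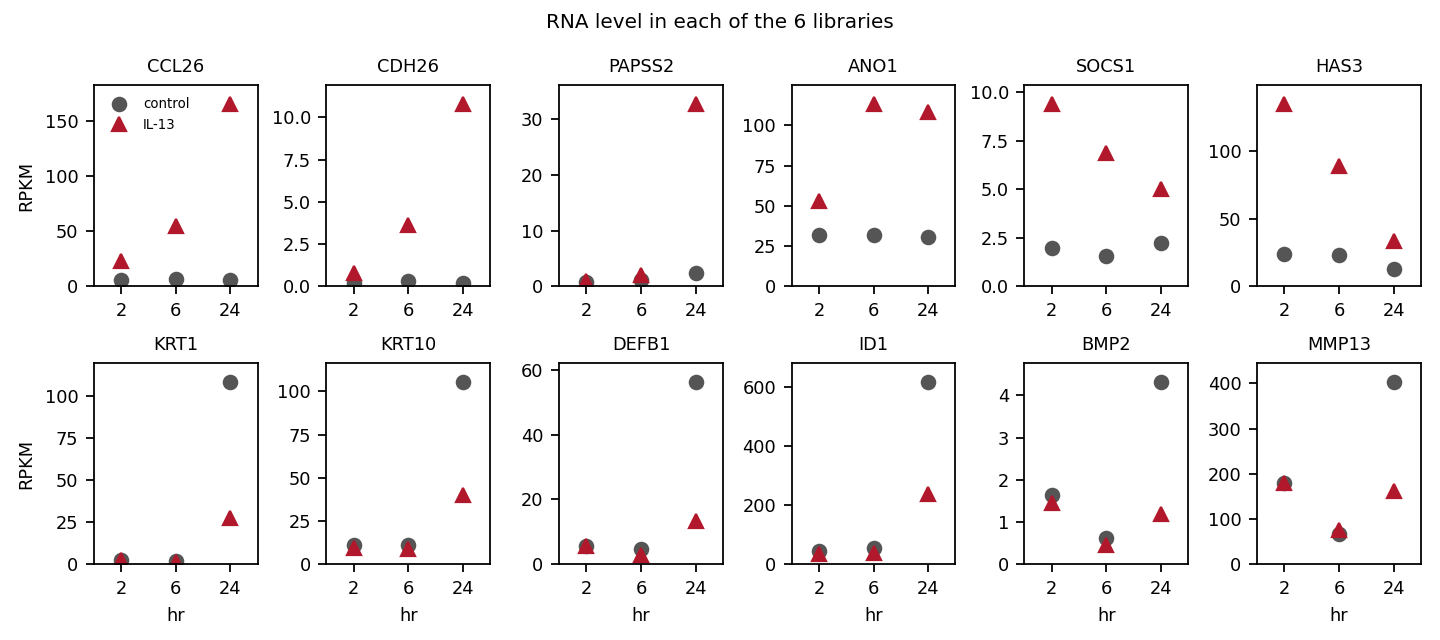
RPKM (linear axes from 0) in the control (circles) and IL-13 (triangles) libraries of 2, 6 and 24 hr, 1 library each, for 6 genes that were higher and 6 that were lower at 24 hr. In KRT1, KRT10, DEFB1 and ID1 the 24 hr control is the highest of the 6 libraries and the IL-13 library of 24 hr is the second highest.

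Products of squamous differentiation were among the lower genes. The list of cornified envelope and 1q21 genes holds 58 members, of which 16 were compared. Of these 16, 9 were lower, 0 were higher, 15 were below 0, and the median was -1.06. Involucrin (IVL), chosen after its values were seen, was under the minimum and not compared, at 0.760 and 0.835 RPKM. The calmodulin-like proteins CALML5 and CALML3, neighbours on chromosome 10 (chr10:5540658-5568225 in hg19), were at 8.25 and 1.22 RPKM and at 7.36 and 1.59 RPKM at 24 hr. CALML5 rested on 98 and 15 reads. SPRR1B, a cornified envelope precursor, was at 9.09, 6.09 and 8.69 RPKM in the controls and at 6.48, 3.12 and 1.96 RPKM with IL-13. Transglutaminases that cross-link the envelope were lower too, TGM1 at 53.0 and 25.5 RPKM and TGM3 at 1.16 and 0.373 RPKM. THEM5 was at 10.7 and 2.36 RPKM, ECM1 at 3.42 and 1.45 RPKM, and the calprotectin subunit S100A8 at 2.26 and 0.818 RPKM. Members that did not pass were CSTA at 117 and 128 RPKM, the plakin PPL at 34.6 and 30.2 RPKM and EVPL at 23.6 and 16.2 RPKM.

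Most keratins had lower levels with IL-13 at 24 hr. Of 20 compared, 19 were below 0, 4 passed 2-fold, and the median was -0.65. Their summed level was 7020 RPKM without and 4500 RPKM with IL-13 at 24 hr, against 6440 and 6160 RPKM at 6 hr. KRT1, a suprabasal keratin, was at 2.62, 1.85 and 109 RPKM in the controls and at 2.44, 1.13 and 27.8 RPKM with IL-13. Its partner KRT10 was at 10.9, 11.2 and 106 RPKM without and 9.56, 9.09 and 40.2 RPKM with IL-13. In both genes the 24 hr libraries were far above those of 2 and 6 hr, the control more so. The basal keratins moved by less than KRT1 and KRT10. KRT14 was at 287 and 137 RPKM, KRT5 at 2200 and 1323 RPKM and KRT17 at 1054 and 594 RPKM. KRT5 and KRT17 did not pass. The esophageal suprabasal keratins KRT13 and KRT4 and the simple keratin KRT18 were chosen after their values were seen. KRT13 was at 409 and 256 RPKM, KRT4 at 4.12 and 2.39 RPKM and KRT18 at 241 and 252 RPKM. At ratios of 0.627 and 0.581, KRT13 and KRT4 moved by less than the basal KRT14, at 0.476.

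**Figure D4:**
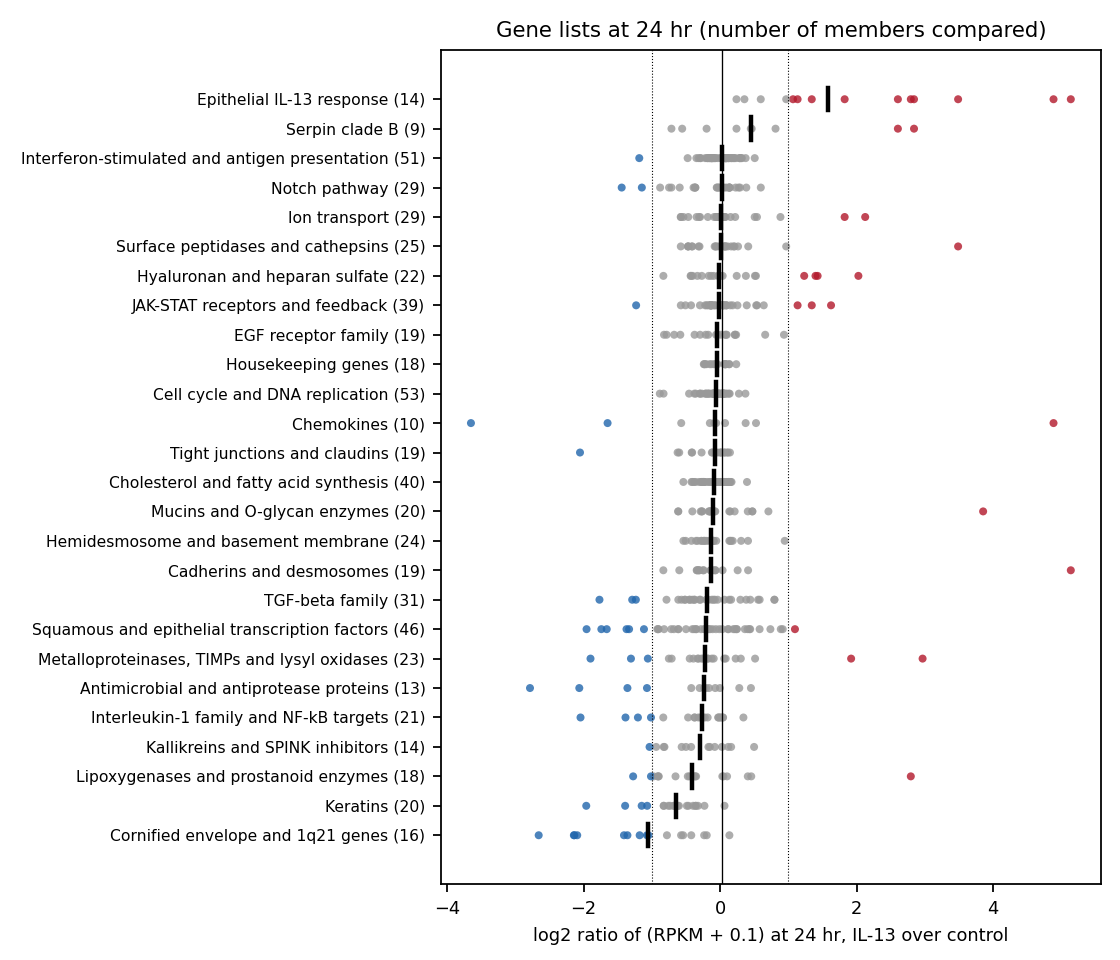
Log2 ratio of (RPKM + 0.1) at 24 hr of each compared member of 26 gene lists (points; red 2-fold higher, blue 2-fold lower, grey neither), with the list's median as a black bar and dotted lines at 2-fold. IL-13 response genes have the highest median, 1.58, and cornified envelope genes and keratins the lowest, -1.06 and -0.65.

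Antimicrobial proteins followed the same direction in 11 of 13 members, of which 4 were lower and 0 higher (median -0.24). The lower members S100A8 and PGLYRP3 are also in the list of cornified envelope and 1q21 genes. S100A8 rested on 16 and 6 reads (interval 0.116 to 0.976) and PGLYRP3 on 16 and 7 reads (interval 0.147 to 1.09). C10orf99, a cationic peptide of barrier epithelia, was at 0.122, 0.156 and 25.5 RPKM in the controls and at 0.214, 0.0735 and 3.62 RPKM with IL-13. Its 24 hr reads were 287 and 42, and the interval of the ratio was 0.0999 to 0.196. DEFB1, the constitutive beta-defensin, was at 5.57, 4.60 and 56.4 RPKM without and 5.59, 2.79 and 13.4 RPKM with IL-13. As with KRT1, levels at 2 and 6 hr were low in both conditions. The claudin CLDN8 was the lone member of 19 tight junction genes that passed, at 6.94 and 1.60 RPKM, while CLDN1 was at 152 and 98.5 RPKM and CLDN7 at 123 and 136 RPKM.

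Of 46 squamous and epithelial transcription factors 6 were lower and 1 was higher. The other members did not pass, 16 of the 46 were above 0, and the median was -0.21. ID1, an inhibitor of helix-loop-helix factors and a textbook target of bone morphogenetic proteins, was the most abundant of the lower genes. It was at 46.1, 56.6 and 618 RPKM in the controls and at 33.6, 38.8 and 239 RPKM with IL-13. ID2 was at 20.2 and 5.96 RPKM at 24 hr, and the homeobox factors DLX2, DLX5 and BARX2 at 7.26 and 1.80, 3.16 and 1.40, and 3.92 and 1.17 RPKM. OVOL1, which restrains proliferation in suprabasal cells, was at 38.7 and 15.3 RPKM. The higher member was SOX2, a factor of basal esophageal cells, at 10.1, 16.4 and 49.2 RPKM in the controls and at 26.7, 37.7 and 105 RPKM with IL-13. TP63, the basal lineage factor, was at 230 and 228 RPKM, and KLF5 at 326 and 295 RPKM. ID3, chosen after its values were seen, did not pass at 24 hr, at 89.1 and 58.3 RPKM, but was at 18.0 and 53.1 RPKM at 2 hr and at 25.9 and 55.6 RPKM at 6 hr.

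Ligands and inhibitors of the TGF-beta family included 3 lower genes of 31 and 0 higher ones (median -0.20). BMP2 was at 1.64, 0.618 and 4.33 RPKM without and 1.45, 0.469 and 1.20 RPKM with IL-13, from 185 and 53 reads at 24 hr (interval 0.200 to 0.378). SMAD6, an inhibitor of this pathway, was at 4.70 and 1.86 RPKM, and the activin subunit INHBA at 4.30 and 1.77 RPKM. BMP7 did not pass, at 45.6 and 35.2 RPKM. In the Notch list 2 of 29 were lower, the target HEY1 at 7.89 and 2.84 RPKM and the glycosyltransferase MFNG at 1.16 and 0.469 RPKM, while JAG1 was at 117 and 90.7 RPKM. The Wnt ligands WNT4 at 4.23 and 1.19 RPKM and WNT6 at 3.17 and 1.17 RPKM, outside the lists, were named after their values were seen.

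Of 10 chemokines CCL26 alone was higher, and 2 were lower. CCL27, the skin T cell attractant, had 7 reads and 0 reads at 24 hr, at least 2.41-fold lower against the floor of 3 reads, although the exact interval of the ratio reaches up to 0.671. CCL17 was at 2.40 and 0.696 RPKM. CXCL1, at 164 and 158 RPKM, and IL8, at 59.3 and 53.4 RPKM, did not pass. Of 21 interleukin-1 family genes and NF-kB targets 4 were lower and 0 higher (median -0.27): IL1RN at 19.8 and 7.52 RPKM, IL11 at 2.48 and 1.02 RPKM, PTGS2 at 17.5 and 8.62 RPKM and IL36G from 17 and 3 reads. IL1RN encodes the receptor antagonist of interleukin-1.

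Pathway lists with no called member were hemidesmosome (24 genes), EGF receptor family (19), cell cycle (53), cholesterol and fatty acid synthesis (40) and housekeeping genes (18), with medians between -0.13 and -0.04. The leukocyte, fibroblast and muscle, and brain marker lists had no called member either, with medians of -0.91 (CD68 alone), -0.23 (5 genes) and -0.27 (4 genes). In the interferon and antigen presentation list 1 of 51 was lower, the invariant chain CD74 at 1.05 and 0.408 RPKM, and the median was 0.03. GAPDH was at 1732 and 1817 RPKM. Of 11 endothelial markers VWF alone was compared, and it was higher, at 0.943 and 4.21 RPKM from 113 and 521 reads. VWF was under the minimum of 1 RPKM in the control and was compared through its IL-13 level only. KDR, TEK, TIE1 and EMCN were listed at 0 in both 24 hr libraries.

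The same genes were then read at the earlier times, whose libraries are separate from those of 24 hr. The controls of 2 and 6 hr had identical RPKM, within a relative 1e-06, in 359 of the 17225 genes above 0 in both, whereas the 14 remaining pairings of libraries had 0 such genes each. The earlier times may therefore not be independent of each other. Of the 68 higher genes 41 were compared at 6 hr, where 20 were 2-fold higher beside 0.543% of all genes. Of the 41, 34 were above 0, beside 48.6% of all genes compared at both times, and the median was 0.96. Of the 37 compared at 2 hr, 18 were 2-fold higher beside 0.397% of all, and the median was 0.91. At all 3 times 16 genes passed, among them CCL26, GCNT3, MMP7, SERPINB3, SERPINB4, SGK1, LIFR, HAS2, HAS3, HS3ST1, LURAP1L, CISH, SOCS1, SOX2 and SYNPO. The lower genes were different. Of 63 compared at 6 hr 3 were 2-fold lower, beside 0.11% of all, namely CALML5, MALL and PMCH. However, 56 were below 0, beside 51.4% of all genes compared at both times, and the median was -0.41. At 2 hr 2 of 67 were 2-fold lower, FXYD6 and CRYAB, beside 0.186% of all, and the median was -0.16. FXYD6 was at 1.18 and 0.474 RPKM and CRYAB at 1.55 and 0.212 RPKM at that time. The 2 hr control also had the highest level of the 6 libraries in 16 of 18 brain markers, which summed to 96.4 RPKM there and to 70.4 RPKM with IL-13. SNAP25, at 3.57 RPKM in that control, was listed at 0 in the IL-13 library, as were 10 of the 18 in all. Their part in the values of FXYD6 and CRYAB was not tested. No lower gene passed at all 3 times. Conversely, 59 of the genes 2-fold higher at 6 hr were compared at 24 hr, where 20 passed and the median was 0.72.

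Levels in the untreated cells differed between the libraries of these times as well. The headers of the 24 hr pair carry a code that those of 2 and 6 hr lack, and its meaning is not stated. Time and other differences between these libraries cannot be told apart. The median log2 ratio of control RNA at 24 over 6 hr was 0.19, and that of IL-13 RNA 0.18, over the 11598 genes compared at both. Against this shift, the 24 hr level of C10orf99, THEM5, KRT1, DEFB1, ID1, ID2, DLX5 and CLDN8 was far above the 6 hr level in both conditions. THEM5, for example, was at 0.0286 RPKM without and 0.0742 RPKM with IL-13 at 6 hr. RARB, a retinoic acid receptor, behaved likewise on the higher side, at 0.0541 and 0.135 RPKM at 6 hr and at 1.71 and 6.29 RPKM at 24 hr.

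Over the 11598 genes compared at both times, log2 ratios at 24 and 6 hr had a Pearson correlation of 0.464 and a Spearman correlation of 0.297. With at least 5 RPKM at both times (8421 genes) these were 0.553 and 0.320. Genes are not independent replicates, so these values describe the 4 libraries.

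Histone marks had been measured at 6 hr. The files give for each peak M, the authors' rescaled log2 ratio of library 1 over library 2, and neither headers nor labels say which of the libraries was treated. A peak of the acetylation mark H3K27Ac, found at active promoters and enhancers, was listed at the start of 19 of the 68 higher genes, 40 of the 126 lower genes and 5296 of all genes compared. The median M was -0.25 in higher genes, 0.21 in lower genes and 0.08 in all. Of the 19 higher genes 7 had an M of -1 or less (36.8%), against 1.0% of all. These were VWF at -3.56, SERPINB4 at -3.25, SERPINB3 at -2.97, MMP7 at -2.32, NFE2 at -2.16, SOCS1 at -1.98 and CISH at -1.31. The peak levels of VWF, SERPINB3 and NFE2, 35.0, 35.1 and 48.8 in the higher library, were close to the minimum of 30. Those of SERPINB4, MMP7, SOCS1 and CISH were 104.3, 212.3, 259.6 and 173.0. On the other side, an M of 1 or more was found in 1 of the 19 higher genes (5.3%) and in 5 of the 40 lower genes (12.5%), against 2.61% of all. Lower genes had an M under 0 in 9 of 40 cases (22.5%), against 39.3% of all. KRT10 was at 0.22, MMP13 at 0.67, and LYPD3, a cell adhesion protein of keratinocytes, at 1.21. By contrast, CCL27 was at -3.02, with a peak level of 32.0, EDIL3 at -0.26 and KRT14 at -0.09. In higher genes that had also passed at 6 hr the median was -1.31 (9 genes), and in those that had not it was 0.05 (10 genes). Of the 9 genes, 8 had an M under 0, against 39.3% of all. The exception was CCL26, at 0.04, and HAS2 was at -0.16.

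H3K9Ac and the promoter mark H3K4me3 differed in the same sense with fewer peaks. For H3K9Ac the median M was -0.38 in 14 higher, 0.20 in 31 lower and 0.08 in all genes. Of the 14, 12 were under 0, against 39.3% of all. For H3K4me3 the median M was -0.70 in 9 higher, 0.16 in 18 lower and 0.11 in all genes. Of the 9, 7 were under 0, against 41.1% of all. HS3ST1 had -1.10 for H3K9Ac and -1.89 for H3K4me3, and CISH -0.77 and -0.70.

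**Figure D5:**
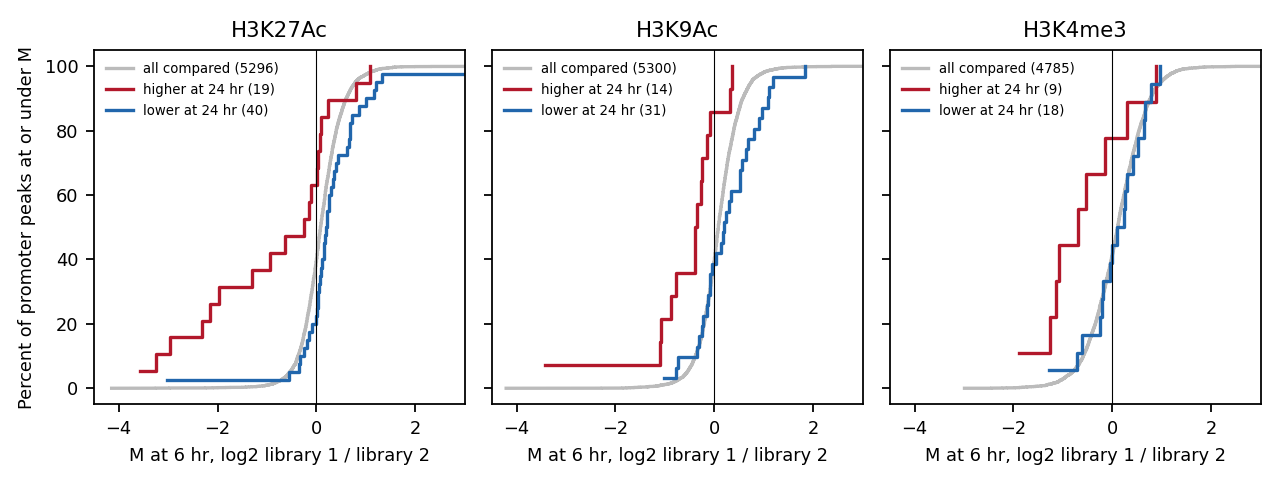
Cumulative percent of promoter peaks at 6 hr by M, the authors' log2 ratio of library 1 over library 2, for all genes compared (grey), genes higher (red) and genes lower (blue) with IL-13 at 24 hr; the direction of treatment is not given. At its middle the red curve lies to the left of the grey one in each mark, with medians of -0.25, -0.38 and -0.70. The blue curve lies to the right of the grey one at its middle.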

How the data were processed

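RNA values are RPKM deposited by the authors, per the file headers, in a table that also holds the authors' log2 ratio, p-value and adjusted p-value for each gene. Per the submitters' processing notes, DESeq is named for both assays, TopHat2 2.0.9 for RNA, and MACS2 2.0.10.20130712 with Bowtie 1.0.0 for ChIP-seq, and the build was hg19 (GRCh37). How reads were counted is not given in the sources used here. Peaks carry M and A, log2 values deposited by the authors, and a −log10 p-value, per the file headers. For peaks 6 columns of raw reads were not used.

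Here log2 ratios were computed from RPKM + 0.1, and promoter peaks with a level of at least 30 were taken at the gene's start. Reads were solved from RPKM steps for 3648 of 7043 genes with 1 transcript. The 3638 of them that matched the authors' log ratios were kept. Reads in lowest terms were taken from the authors' log ratios. The script was tested on simulated data. Members and lists were chosen with earlier results of these data known. Genes named are the 20 largest and 20 smallest ratios, up to 8 called and 3 other members of each list, called markers, CCL26, SOCS1 and CAPN14. Others were named after their values were seen, and the TATA and GC counts were added then. Some genes are not reported here. Tools were pandas 2.3.3, NumPy 2.4.6, SciPy 1.17.1, matplotlib 3.10.9 and Python 3.11.15.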

Additional observations from a re-analysis of the deposited data

Results flagged for a closer look

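NRGN, which encodes neurogranin, passed the 2-fold rule in opposite directions at 2 of the times. At 24 hr it was at 0.586 RPKM without and 1.29 RPKM with IL-13, a log2 ratio of 1.02. At 2 hr it was at 4.60 and 1.10 RPKM, a log2 ratio of -1.97, and at 6 hr at 1.35 and 1.64 RPKM, a log2 ratio of 0.26. Each value is 1 library, the 24 hr reads in lowest terms were 4 and 11, and the difference between the times was not tested. The 2 hr control also had the highest level of the 6 libraries in 16 of 18 brain markers. Whether this bears on its NRGN value was not tested.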

How the results depend on the processing

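The 68 higher and 126 lower genes became 37 and 49 with a pseudocount of 1 RPKM, 24 and 45 with a minimum of 5 RPKM, and 303 and 393 with no minimum RPKM. With no minimum length 111 genes were higher, as genes under 300 bp entered. With a pseudocount of 0.01, a minimum of 0.5 RPKM, a minimum length of 1000 bp, centring on the median or the authors' adjusted p from their deposited table, both counts stayed within 1.5 times. By that adjusted p 49 genes were higher and 86 lower, of which 34 and 49 were also called by size. Of 78 named genes that were called, 56 stayed past 2-fold with a pseudocount of 1 RPKM, and 78 did with 0.01 or with centring. Medians of some lists changed sign, the chemokines from -0.07 to 0.07 with a minimum of 5 RPKM, and 5 lists with no minimum RPKM, among them endothelial markers from 2.05 to -0.02, leukocyte markers from -0.91 to 0.01 and fibroblast and muscle markers from -0.23 to 0.04. No paired analysis was possible because each group is 1 library. Depth of 13.6 to 14.0 megareads leaves genes of under 20 reads poorly defined.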

Other observations

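Several abundant genes outside the lists were lower at 24 hr, all named after their values were seen. The neighbouring alkaline phosphatase genes ALPP and ALPPL2, which are near copies of each other, were at 20.9 and 7.64 RPKM and at 13.2 and 5.38 RPKM. IGF2, an insulin-like growth factor, was at 46.0 and 21.6 RPKM and the receptor FGFR3 at 43.0 and 20.1 RPKM. The nerve growth factor receptor NGFR, a marker of basal esophageal cells, was at 6.34 and 2.46 RPKM from 147 and 59 reads. The transcription factor MXD1, which opposes MYC, was at 17.0, 4.49 and 39.4 RPKM in the controls and at 14.5, 3.42 and 15.7 RPKM with IL-13. MALL, a membrane raft protein of epithelia, was lower at both late times, at 40.0 and 16.7 RPKM at 6 hr and at 24.1 and 6.41 RPKM at 24 hr.

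On the higher side LURAP1L was at 1.09, 0.360 and 5.32 RPKM in the controls and at 7.01, 4.67 and 17.3 RPKM with IL-13. NTN1, the guidance cue netrin-1, was at 7.14, 7.38 and 1.84 RPKM without and 8.51, 14.4 and 4.001 RPKM with IL-13, from 149 and 334 reads at 24 hr. TG, the gene of thyroglobulin, was at 0.584 and 1.91 RPKM at 24 hr, from 67 and 226 reads (interval 2.47 to 4.35). Called genes within 100 kb of each other included pairs that went the same way, such as CALML5 and CALML3, SERPINB4 and SERPINB3, KRT9 and KRT14, and COX6B2 and IL11. Other pairs went opposite ways, SPNS2 and ALOX15 and also TMEM91 and B3GNT8. Reads of TMEM91 in lowest terms were 13 and 23, a ratio of 1.71 with an interval of 0.832 to 3.68. KRT9 rested on 12 and 5 reads, with an interval of 0.111 to 1.23.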
